A study of Homo sapiens with 6 samples.

Results

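The 4 receptors of the ERBB family (EGFR, ERBB2, ERBB3 and ERBB4) and 6 of their ligands (EGF, TGFA, AREG, EREG, HBEGF and BTC) were followed through the transcriptomes of MCF10A, a line of human mammary epithelial cells that does not form tumours. These 10 genes were chosen by symbol, with no threshold on their values but with earlier results of these data known. All 10 were found among the 20802 genes read. The 6 libraries were, by their labels, 2 from the untransfected parental cells (MCF10A WT), 2 from a line stably overexpressing eGFP (MCF10A eGFP) and 2 from a line stably overexpressing GIRK1, a subunit of G-protein activated inward rectifier potassium channels (MCF10A GIRK1). Both transfected lines carried the pIRES2eGFP plasmid, the GIRK1 line with GIRK1 inserted so that it and eGFP are read from 1 transcript, and were selected with G418 and sorted for eGFP, so each is a sorted population, whereas the WT line went through neither step. All lines were grown in the same supplemented mammary epithelial medium with cholera toxin, and RNA was taken from subconfluent, trypsinized cells. The series' design text counts 2 GIRK1 lines and 2 control lines where the methods count 2 replicates, nothing in the sources used here says whether these came from separate cultures, and p-values therefore measure only the spread between these libraries, which may be technical. The deposited data of both MCF10A GIRK1 libraries carry a tag that none of the other 4 carries. Its meaning is not given, and if it marks a sequencing run, that run cannot be told apart from the condition.

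ERBB receptors are receptor tyrosine kinases that pair with each other when a ligand binds. EGFR binds all 6 of the ligands followed here, ERBB4 also binds HBEGF, BTC and EREG, ERBB3 has a weak kinase and needs a partner, and ERBB2 has no known soluble ligand. The ligands are made as membrane-bound precursors that metalloproteases cut free, so a cell can stimulate itself and its neighbours. MCF10A depends on EGF supplied with its medium, and its own ligands are known to act in an autocrine way.

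In the assay (Ion AmpliSeq Transcriptome) 1 short amplicon per gene was amplified from cDNA and the reads mapping to it were counted. Levels are given as RPM, the count scaled to a fixed library total. Amplicons differ in efficiency, and levels were therefore tested between libraries for 1 gene and not between genes. Sums over a list, and the choice of its most abundant genes, take RPM as it stands and lean on the amplicons with the most reads. The WT libraries held 2506120 and 16040556 reads, the eGFP libraries 5126930 and 10233974, and the GIRK1 libraries 11107309 and 10346572. A level of 3 reads, taken as the smallest that can be told from 0, was 1.20 RPM in WT replicate 1, 0.187 in WT replicate 2, 0.585 and 0.293 in the eGFP libraries and 0.270 and 0.290 in the GIRK1 libraries. Intervals for single libraries are exact (Clopper-Pearson) 95% intervals and, like these floors, cover counting error only.

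KCNJ3, which encodes GIRK1, had 2408 and 3677 reads (217 and 355 RPM) in the GIRK1 libraries and 0 reads in both eGFP libraries and in WT replicate 2. The library labelled WT replicate 1 held 48 reads of KCNJ3 (19.2 RPM) and went against its label in its cell type markers as well. It had 481 reads of the oestrogen receptor gene ESR1 (192 RPM) and 2315 of KRT19, a luminal keratin, and both genes had 0 reads in the other 5 libraries. GATA3, a luminal transcription factor, was at 982 RPM there and between 13.1 and 19.2 RPM elsewhere. KRT5 and VIM, both high in the other libraries, had 2 reads each in it, and KRT17 had 0. Over whole lists, 16 of 18 luminal markers lay more than 2-fold above the highest of the other 5 libraries, where 17.5% of all genes did, and 14 of 18 basal markers lay more than 2-fold below the lowest, where 9.74% did. The basal transcription factor gene TP63 had 0 reads in all 6 libraries. With 1 amplicon per gene, this cannot tell an absent transcript from an amplicon that does not read it. The library labelled WT replicate 1 was therefore kept apart, and MCF10A GIRK1 was compared first with the 2 eGFP libraries and then with those and WT replicate 2 together. Both comparisons share the GIRK1 and eGFP libraries, and the second is no independent repeat of the first.

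**Figure D1:**
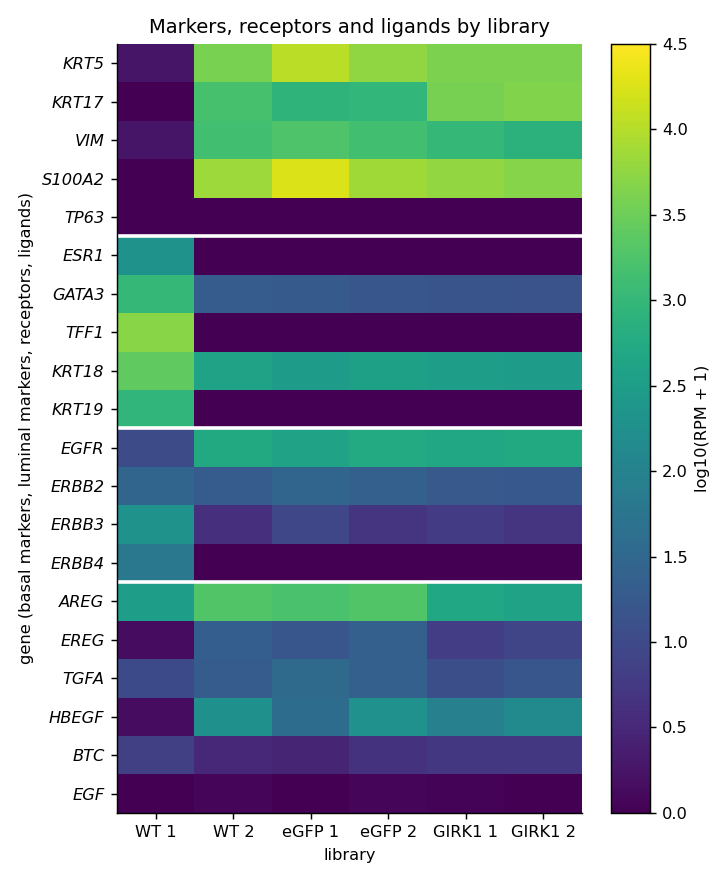
Level of 5 basal markers, 5 luminal markers, the 4 receptors and the 6 ligands in each of the 6 libraries, as log10(RPM + 1) on a colour scale. The first column, the library labelled WT replicate 1, is dark for KRT5, KRT17, VIM and S100A2 and bright for ESR1, GATA3, TFF1, KRT18 and KRT19, and differs from the other 5 columns also in EGFR, ERBB3, ERBB4, EREG and HBEGF.

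Amphiregulin (AREG) fell in MCF10A GIRK1 by about 4.1-fold against the controls, epiregulin (EREG) was lower by about 2.9-fold with a test that passed in 1 of the 2 comparisons, and the receptors EGFR, ERBB2 and ERBB3 did not pass in either. Of the 10 genes, 8 had enough reads to be tested, and ERBB4 and EGF did not. In the comparison with eGFP, 1 of these 8 passed an adjusted p of 0.05 (edgeR, quasi-likelihood test, Benjamini-Hochberg adjusted), where 172 of 11279 genes (1.52%) did in either direction and 84 (0.745%) as lower. With WT replicate 2 among the controls, 2 of the 8 passed, both lower, where 91 of 11389 genes did as higher and 47 (0.413%) as lower, 1.21% in either direction.

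The genes AREG and EREG are neighbours on chromosome 4 (GRCh38, plus strand for both). EREG runs from 74365143 to 74388751 and AREG starts 56.4 kb beyond its end and runs from 74445134 to 74455009. The AREG amplicon covers 107 bases of its transcript, from base 216 to base 322, and is annotated with 2 gene identifiers. What the second identifier stands for is not given in the sources used here. If it is a separate copy of the gene, the reads cannot be divided between the copies. The EREG amplicon covers 101 bases, from base 542 to base 642. The promoters of these neighbours are shown because theirs are the transcripts that passed a test. The windows are from RefSeq (GRCh38.p14), 250 bases before to 50 bases after the start, at chr4:74444886-74445185 for AREG and chr4:74364895-74365194 for EREG, both on the plus strand and 5′ to 3′. Capitals mark TGACGTCA (the cAMP response element) and TATAAA (the TATA box).
AREG promoter: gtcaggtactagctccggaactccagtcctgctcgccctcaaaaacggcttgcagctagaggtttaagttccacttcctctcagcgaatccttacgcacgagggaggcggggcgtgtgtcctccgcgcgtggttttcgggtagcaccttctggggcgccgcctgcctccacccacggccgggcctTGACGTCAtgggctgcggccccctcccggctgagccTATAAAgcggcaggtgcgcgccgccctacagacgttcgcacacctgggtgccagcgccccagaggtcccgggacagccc
EREG promoter: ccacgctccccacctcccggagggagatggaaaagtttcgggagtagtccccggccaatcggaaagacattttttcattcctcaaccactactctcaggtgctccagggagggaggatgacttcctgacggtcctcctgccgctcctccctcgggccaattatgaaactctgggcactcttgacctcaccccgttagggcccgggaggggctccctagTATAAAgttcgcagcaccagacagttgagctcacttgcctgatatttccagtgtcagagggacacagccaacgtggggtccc
These letters and 1 further string were searched on both strands in 35116 windows of this length. TGACGTCA, present in 1.85% of the windows, was found in AREG, where its first base lies 65 bases upstream of the start. TATAAA, present in 11.5%, was found in AREG, EREG and EGFR, and starts 29 bases upstream in AREG and 32 in EREG. TGACTCA, an AP-1 site present in 4.95%, was found in EGF and EGFR. There were 11 windows for 9 of the 10 genes, and a gene was counted if any of its windows matched on either strand. The TATAAA letters in EGFR were not placed within its windows and do not show that its main promoter has a TATA box. A match in letters is a description and no evidence of binding.

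AREG encodes a ligand of EGFR that is prominent in mammary ductal growth. Its level was 1594 and 1874 RPM in the eGFP libraries and 1890 RPM in WT replicate 2. In the GIRK1 libraries it was 469 and 397 RPM, from 5211 and 4103 reads. Both GIRK1 values lay far below all 3 controls and the groups did not overlap. The means were 1734 ± 198 RPM in eGFP and 433 ± 51.3 RPM in GIRK1 (SD, n = 2 each). The log2 fold change was -2.04 (SE 0.217, 95% interval -2.56 to -1.52) against eGFP, a 4.11-fold lower level, with an adjusted p of 0.0121 (edgeR). With WT replicate 2 it was -2.07 (SE 0.182, adjusted p 0.00373, edgeR). The call was lost without GIRK1 replicate 2 (adjusted p 0.0515 and 0.104 in the first and second comparison, edgeR) and, in the second, without GIRK1 replicate 1 (adjusted p 0.0579, edgeR), while the fold change stayed between -2.17 and -1.94. A fit that leaves 1 library in a group, as these do, takes the spread from the other group and assumes that the lone library varies alike, and this holds for every comparison with eGFP below in which 1 library was left out. In bulk RNA such as this, less transcript per cell and fewer cells expressing the gene cannot be told apart.

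EREG encodes a further ligand of EGFR and ERBB4. It was at 15.0 and 22.6 RPM in eGFP, at 20.7 RPM in WT replicate 2, and at 5.67 and 7.64 RPM in GIRK1. Here too both GIRK1 libraries lay below all 3 controls. The counts were smaller, 63 and 79 reads in GIRK1 against 77, 231 and 332 in the controls. The log2 fold change against eGFP was -1.54 (SE 0.318) with an adjusted p of 0.0801, and with WT replicate 2 it was -1.57 (SE 0.267) with an adjusted p of 0.0489 (edgeR), just inside the threshold. The second call was lost in 8 of 13 alternatives, among them total reads as the scaling, at least 10 reads in every library, and eGFP and WT as separate groups (adjusted p 0.0575, 0.0532 and 0.0713, edgeR), and the fits without eGFP replicate 2 or either GIRK1 library (adjusted p 0.220, 0.380 and 0.315, edgeR). The first came inside without either eGFP library (adjusted p 0.00519 and 0.0208, edgeR), with the spread then taken from the GIRK1 libraries alone. The first was also inside with no filter on low counts (adjusted p 0.00736, edgeR) and with DESeq2 (adjusted p 0.00805), and its adjusted p over all alternatives ran from 0.00519 to 0.940.

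TGFA encodes transforming growth factor alpha, the ligand most like EGF in its use of EGFR. Its level was 35.3 and 22.8 RPM in eGFP, 19.0 RPM in WT replicate 2 and 11.3 and 14.9 RPM in GIRK1. The GIRK1 values lay below the controls, but the control values themselves were spread widely, with eGFP replicate 1 the highest. The log2 fold change was -1.19 (95% interval -1.99 to -0.39) against eGFP and -0.99 (-1.81 to -0.18) with WT replicate 2, and neither passed (adjusted p 0.139 and 0.201, edgeR). The first passed in 3 of 12 alternatives, without eGFP replicate 2 (-1.54, adjusted p 0.00216, edgeR), with no filter on low counts (adjusted p 0.0309, edgeR) and with DESeq2 (adjusted p 0.0480), and over all alternatives its adjusted p ran from 0.00216 to 0.933.

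HBEGF encodes heparin-binding EGF-like growth factor, an immediate early product in many epithelia. It was at 37.3 RPM in eGFP replicate 1 and 185 RPM in eGFP replicate 2, at 184 RPM in WT replicate 2, and at 88.6 and 136 RPM in GIRK1. The GIRK1 values fell between those of the 2 eGFP libraries, which differed more from each other than from any GIRK1 library. The log2 fold change against eGFP was 0.01 with a 95% interval from -1.48 to 1.50 (adjusted p 0.995, edgeR), so a difference of more than 2-fold in either direction was within the error. Its direction was set by single libraries, in fits whose spread came from the GIRK1 libraries alone. It was 1.49 without eGFP replicate 2 (adjusted p 0.00376, edgeR) and -0.70 without eGFP replicate 1 (adjusted p 0.111, edgeR).

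BTC encodes betacellulin, a ligand of EGFR and ERBB4, and lies on chromosome 4 as well, beyond AREG. It was the one tested ligand with both GIRK1 libraries above all 3 controls, at 4.41 and 4.45 RPM against 1.95 and 3.52 RPM in eGFP and 2.24 RPM in WT replicate 2. The reads were few, 49 and 46 in GIRK1 and 10, 36 and 36 in the controls. Its log2 fold change was 0.62 (95% interval -0.41 to 1.66) against eGFP and 0.75 (-0.12 to 1.62) with WT replicate 2, and neither passed (adjusted p 0.461 and 0.327, edgeR). The gene for EGF itself had between 0 and 3 reads in every library and was at or below the level of 3 reads in all 6, so no difference in it was detectable at this depth.

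**Figure D2:**
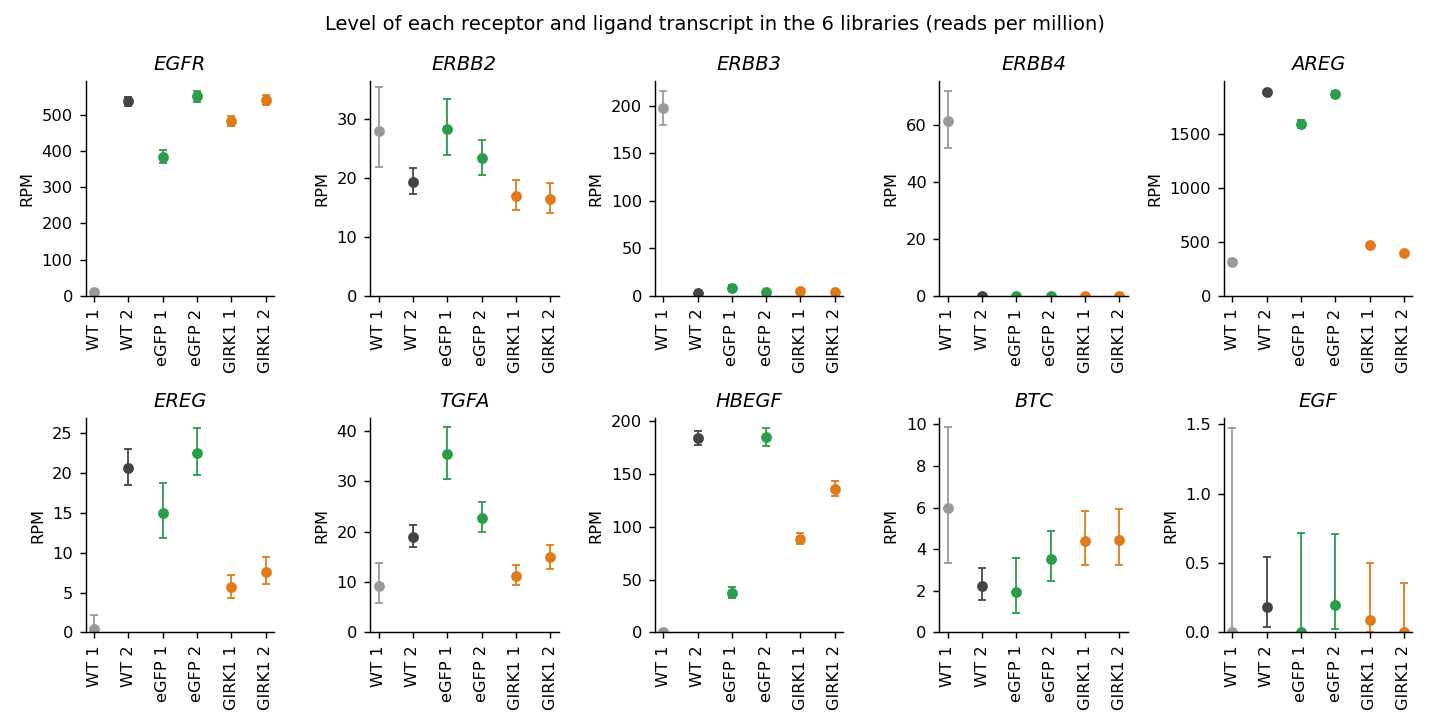
RPM of the 4 receptors and 6 ligands in the 6 libraries, 1 panel a gene, each with its own linear axis from 0. Points are single libraries and bars their exact 95% counting intervals. The GIRK1 points of AREG, EREG, TGFA and ERBB2 lie below the WT replicate 2 and eGFP points, while those of HBEGF lie between the 2 eGFP points.

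EGFR, the receptor for all 6 ligands, was at 385 and 551 RPM in eGFP, 537 RPM in WT replicate 2 and 484 and 541 RPM in GIRK1. The groups overlapped, and eGFP replicate 1 was the lowest. Its log2 fold change was 0.10 (95% interval -0.45 to 0.65) against eGFP and 0.05 (-0.41 to 0.50) with WT replicate 2 (adjusted p 0.838 and 0.925, edgeR), and these intervals leave out a 2-fold difference in either direction.

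ERBB2, the preferred partner of the other receptors, was at 28.3 and 23.3 RPM in eGFP, at 19.3 RPM in WT replicate 2 and at 16.9 and 16.4 RPM in GIRK1. The GIRK1 values were the lowest 2 of these 5, though WT replicate 2 lay close to them. The log2 fold change was -0.67 (95% interval -1.28 to -0.06) against eGFP and -0.52 (-1.11 to 0.06) with WT replicate 2, and neither passed (adjusted p 0.229 and 0.312, edgeR). Without eGFP replicate 2 the first was -0.86 with an adjusted p of 0.0252 (edgeR).

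ERBB3, the receptor with a weak kinase, was at 8.00 and 3.91 RPM in eGFP, 3.06 RPM in WT replicate 2 and 5.40 and 3.67 RPM in GIRK1. The groups overlapped, and the log2 fold change was -0.41 (95% interval -1.59 to 0.78) against eGFP (adjusted p 0.680, edgeR). It was 0.23 without eGFP replicate 1. ERBB4, the receptor for neuregulins and several ligands of the EGF family, had 0 reads in all 5 of these libraries, where 3 reads would be 0.187 to 0.585 RPM.

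**Figure D3:**
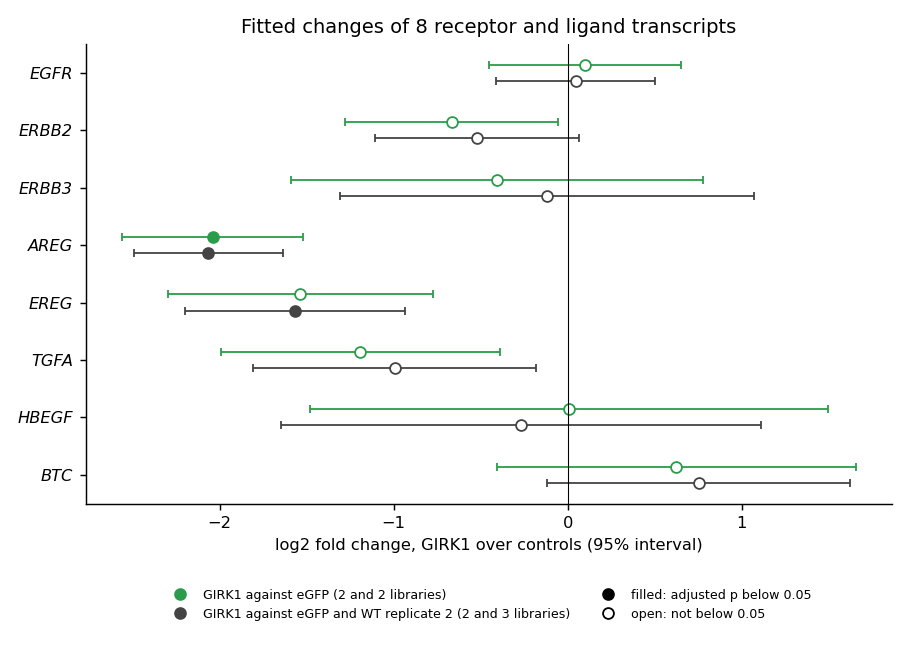
Log2 fold change of MCF10A GIRK1 over its controls for the 8 receptor and ligand transcripts with enough reads, with 95% intervals, in both comparisons. Filled points passed an adjusted p of 0.05 (edgeR). AREG was filled in both and EREG in the comparison that includes WT replicate 2, and the intervals of EGFR, ERBB3, HBEGF and BTC span 0 in both.

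Counted without a test, both GIRK1 libraries lay below all 3 controls for 4 of the 8 tested genes (AREG, EREG, TGFA and ERBB2) and above them for 1 (BTC). Over all 11389 genes tested, 19.5% lay below and 21.6% above. By the study's own kind of rule, a 2-fold difference of mean RPM between GIRK1 and eGFP where SD over mean was under 0.7 in both groups, 3 of the 10 genes were past it, all 3 lower (AREG, EREG and TGFA), where 9.92% of 13200 genes were past it in either direction. The median log2 fold change of the 5 tested ligands was -1.19 against eGFP and that of the 3 tested receptors -0.41, beside 0.01 for all genes tested. With WT replicate 2 these medians were -0.99 and -0.12, beside -0.0074. They are the values of TGFA and ERBB3, and neither gene passed in either comparison.

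The genes whose pattern was most like that of EGFR over the 5 libraries without WT replicate 1, by Pearson's correlation of log2(RPM + 1) among 9196 genes with at least 50 reads on average, were C1orf198, SDE2 and GOLGA5, each with a coefficient of 0.999. Those most like AREG were RASSF8, TPX2, a spindle assembly factor, and TMCO7, with coefficients of at least 0.999. TPX2 was at 135, 144 and 146 RPM in the controls and at 54.3 and 49.5 RPM in GIRK1. With so many genes and 5 libraries, high coefficients are common, and these names only describe the pattern.

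Beyond the 6 ligands, the family includes the neuregulins, which bind ERBB3 and ERBB4. Of the 4 neuregulin genes, 3 could be tested. NRG4 was at 5.07 and 4.40 RPM in eGFP and at 0.360 and 0.580 RPM in GIRK1, whereas WT replicate 2, at 0.748 RPM, lay near the GIRK1 libraries. It passed against eGFP (log2 fold change -3.33, SE 0.539, adjusted p 0.0442, edgeR) from 4 and 6 reads in GIRK1. It got through the filter on low counts by its eGFP values alone, which favours a lower call. It did not pass with WT replicate 2 (-2.80, SE 0.950, adjusted p 0.195, edgeR). NRG1 was lower in both GIRK1 libraries than in the 3 controls, at 1.17 and 1.35 RPM against 3.12, 5.77 and 3.49 RPM, and passed in neither comparison (adjusted p 0.123 and 0.118, edgeR). NRG2 was at 4.05 and 2.80 RPM in GIRK1 and 0.780 and 1.08 RPM in eGFP, but at 2.81 RPM in WT replicate 2, and did not pass either (adjusted p 0.142 and 0.363, edgeR).

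The proteases that release the ligands, with the iRhom proteins that guide them, gave 0 of 10 tested genes past the threshold in either comparison, with 2 higher and 8 lower against eGFP and a median log2 fold change of -0.33. ADAM15 was at 581, 523 and 370 RPM in the controls and 474 and 422 RPM in GIRK1, and ADAM9 at 133, 92.3 and 107 RPM against 95.4 and 91.2 RPM, so both overlapped the controls. The receptor inhibitors and ubiquitin ligases gave 0 of 17, with a median of 0.11. Of these, RNF41, a ubiquitin ligase for ERBB3, was at 40.8, 90.4 and 86.7 RPM in the controls and 96.2 and 109 RPM in GIRK1, and PTPN12, a phosphatase that acts on ERBB receptors, at 81.5, 105 and 90.0 RPM against 75.4 and 84.4 RPM. Adaptors and proximal signalling proteins gave 0 of 22, with a median of 0.17. SHC1, the adaptor that couples the receptors to RAS, was at 960, 1210 and 1009 RPM in the controls and 1148 and 1239 RPM in GIRK1, and PTPN11, the phosphatase SHP2, at 162, 137.6 and 219 RPM against 224 and 211 RPM. At an unadjusted p under 0.05 (edgeR) the numbers against eGFP were 1, 2 and 2 for these 3 lists and with WT replicate 2 they were 0, 1 and 0, where 19.2% and 18.7% of all genes tested were in the 2 comparisons, and DESeq2 gave 0 adjusted calls in all 3 in both comparisons, where 6.15% and 7.36% of all genes with an adjusted p were called.

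EGFR signalling induces immediate early genes within a short time. The list named here EGF-responsive immediate early genes also holds feedback phosphatases such as DUSP5 and further genes of the pathway, not all of them immediate early. It gave 2 of 20 tested genes lower and 0 higher past the threshold in each comparison, IER3 and DUSP5 in both. Over all genes tested, 0.745% passed as lower against eGFP and 0.413% with WT replicate 2. IER3, an early response gene of stressed and stimulated cells, was at 247, 250 and 182 RPM in the controls and 69.1 and 86.3 RPM in GIRK1. Its log2 fold change was -1.72 (SE 0.224, adjusted p 0.0238, edgeR) against eGFP and -1.57 (SE 0.239, adjusted p 0.0343, edgeR) with WT replicate 2. DUSP5, a nuclear phosphatase of ERK, was at 56.8, 51.9 and 48.4 RPM in the controls and 15.8 and 19.5 RPM in GIRK1. Its log2 fold change was -1.66 (SE 0.244, adjusted p 0.0347, edgeR) against eGFP and -1.59 (SE 0.213, adjusted p 0.0209, edgeR) with WT replicate 2. Without either 1 of the GIRK1 libraries, 0 genes of the list passed in either comparison, where between 0.163% and 0.943% of all genes did. Without eGFP replicate 1, 6 and 5 passed, all lower, where 3.56% and 4.43% of all genes passed as lower. Without eGFP replicate 2, 12 passed in the first (3 higher and 9 lower), where 25.4% of all genes did, and 0 in the second, where 0.275% did.

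With DESeq2, 7 and 5 genes of the list passed, all lower, where 4.02% and 4.27% of all genes with an adjusted p passed as lower. Among the other genes of the list the values were mixed. PHLDA1 was at 300, 718 and 690 RPM in the controls and 150 and 245 RPM in GIRK1 and did not pass (adjusted p 0.160 and 0.125, edgeR). DUSP1, a further phosphatase of this class, overlapped, at 479, 721 and 472 RPM against 497 and 445 RPM. EGR1 had log2 fold changes of 0.15 against eGFP and -0.02 with WT replicate 2 (adjusted p 0.836 and 0.986, edgeR). Of the 20 genes, 6 were higher and 14 lower against eGFP, and 5 were higher and 15 lower with WT replicate 2. Both GIRK1 libraries lay below all 3 controls for 10 of the 20 genes and above them for 0, where 19.5% and 21.6% of all genes tested lay so. The list was chosen with earlier results of these data known. The list's median log2 fold change was -0.56 against eGFP and -0.45 with WT replicate 2, beside 0.01 and -0.0074 for all genes tested.

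**Figure D4:**
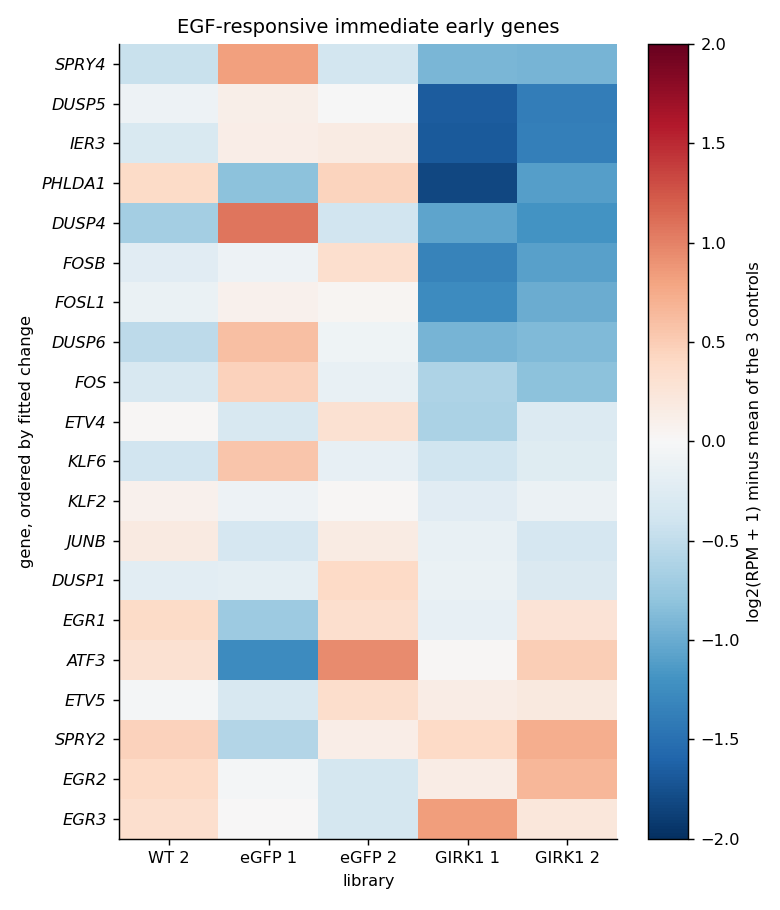
The 20 tested genes of the list named EGF-responsive immediate early genes, not all of them immediate early, in WT replicate 2 and the eGFP and GIRK1 libraries. Values are log2(RPM + 1) minus the mean of the 3 controls, ordered by the fitted change. IER3 and DUSP5 are blue in both GIRK1 libraries and near 0 in the controls, whereas SPRY4, DUSP4, PHLDA1 and ATF3 also differ between the control libraries.

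**Figure D5:**
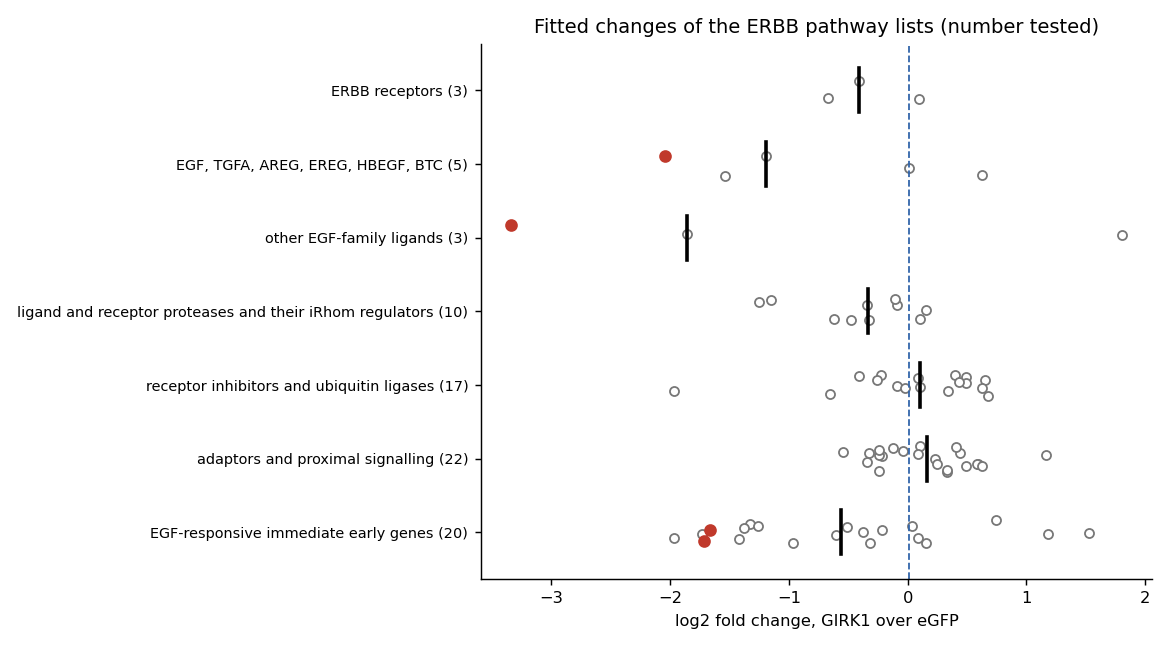
Log2 fold change of MCF10A GIRK1 over MCF10A eGFP for the receptors, the ligands and 5 further lists of the pathway, 1 point a gene. Red points passed an adjusted p of 0.05 (edgeR), black bars are list medians and the dashed line is the median of all genes tested. AREG, NRG4, IER3 and DUSP5 are the red points.

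Some basal markers differed between these libraries as well. The summed level of the list was 39210 and 20842 RPM in eGFP, 17996 RPM in WT replicate 2 and 17765 and 17046 RPM in GIRK1, with S100A2 giving the most reads of the list in each of these libraries and TP63 at 0. The sum in WT replicate 2 was close to those in GIRK1, and eGFP replicate 1 stood highest. Of its 17 tested genes, KRT16 and KRT17, stress-associated keratins, rose against eGFP, and LAMB3, which encodes a laminin chain, fell. LAMB3 was at 1747, 1790 and 768 RPM in the controls and 258 and 260 RPM in GIRK1 (log2 fold change -2.81, SE 0.214, adjusted p 0.00380, edgeR), and KRT17 at 853, 952 and 1570 RPM against 3800 and 4513 RPM (2.17, SE 0.223, adjusted p 0.0104, edgeR). The basal list, too, was chosen with earlier results of these data known. Both GIRK1 libraries lay below all 3 controls for 10 of its 17 tested genes and above them for 2, where 19.5% and 21.6% of all genes tested lay so. The part of these differences in the values of AREG and EREG was not tested. Of the 8 luminal genes tested 0 passed in edgeR (2 at an unadjusted p under 0.05 against eGFP and 1 with WT replicate 2, where 19.2% and 18.7% of all genes were, and 1 and 0 adjusted calls with DESeq2, where 6.15% and 7.36% of all were), and ESR1, PGR, TFF1, TFF3, AGR3 and KRT19 were at 0 reads in all 5 libraries. The summed luminal level was 742 and 961 RPM in eGFP, 1106 RPM in WT replicate 2 and 946 and 852 RPM in GIRK1. Of the 2 fibroblast genes tested, DCN passed against eGFP, at 0.780 and 3.71 RPM in eGFP and 27.0 and 25.2 RPM in GIRK1 (log2 fold change 3.37, adjusted p 0.0371, edgeR), and did not pass with WT replicate 2, which was at 10.2 RPM (2.29, adjusted p 0.145, edgeR). It got through the filter on low counts against eGFP by its GIRK1 values, which favours a higher call, while COL1A2, COL3A1 and PDGFRA were at 0 reads in these 5 libraries. The immune list had 1 gene tested, CD14, and the endothelial list 1, KDR, and neither passed.

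In the library labelled WT replicate 1, ERBB3 and ERBB4 were high and EGFR, EREG and HBEGF low, while ERBB2, TGFA, AREG, BTC and EGF did not stand apart from the other 5 by more than 2-fold. Lying more than 2-fold above the highest of the others were 2 of the 10 genes, a share near that of all 13897 genes considered (17.5%), and more than 2-fold below the lowest were 3, where 9.74% of all did. This is 1 library, so no test across replicates was possible, and the intervals cover counting error only.

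ERBB3 was at 198 RPM in it (495 reads) and between 3.06 and 8.00 RPM in the others, 64.7-fold above WT replicate 2 (48.1 to 88.6). ERBB4 was at 61.5 RPM (154 reads), at least 329-fold higher than the 3-read level of WT replicate 2, where it had 0 reads. EGFR was at 9.98 RPM (25 reads) against 385 to 551 RPM in the others, 53.9-fold below WT replicate 2 (36.5 to 83.3).

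The ligands HBEGF and EREG had 1 read each in this library (0.399 RPM), against 184 and 20.7 RPM in WT replicate 2, which was 461-fold (82.6 to 18204) and 51.9-fold (9.25 to 2055) higher. AREG was at 317 RPM, 5.97-fold below WT replicate 2 (5.56 to 6.41) and less than 2-fold below the lower of the GIRK1 libraries. TGFA was at 9.18 RPM, 2.07-fold below WT replicate 2 (1.36 to 3.32), and ERBB2 at 27.9 RPM, 1.45-fold above it (1.10 to 1.88). BTC was at 5.99 RPM, above the other 5 libraries by less than 2-fold. NRG3, which had 0 reads in the other 5 libraries, had 12 reads in it (4.79 RPM), at least 25.6-fold above the 3-read level of WT replicate 2. NRG1, NRG2 and NRG4 had 0 reads in it, and for NRG4 a level like that of WT replicate 2 would not have been detectable at its depth.

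Counting this library as a WT control changed the comparisons. With it among the controls AREG had a log2 fold change of -1.73 (adjusted p 0.754, edgeR) and EREG of -1.18 (adjusted p 0.854, edgeR), and 7 of all genes passed. In a fit of GIRK1 against eGFP that took the spread from all 6 libraries in their labelled groups, AREG stood at -2.04 with an adjusted p of 0.933 (edgeR), and 0 genes passed, with 599 at an unadjusted p under 0.05.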

How the data were processed

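The authors mapped Ion AmpliSeq Transcriptome reads to the AmpliSeq human transcriptome reference (21K, version 1) with the Ion Torrent suite and deposited, per amplicon, whole-number read counts and RPM, the count scaled to the library total. Software versions are not given in the sources used here. Deposited amplicon positions and GC counts gave amplicon locations. The 10 spike-in amplicons had 0 reads and were dropped.

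Libraries were grouped by their labels. The tests used edgeR 4.0.16 under R 4.3.3, with TMM, filterByExpr, glmQLFit and glmQLFTest (two-sided), Benjamini-Hochberg adjustment over all genes tested and a threshold of 0.05, on 4 libraries (11279 genes) and on 5 (11389 genes). Standard errors are the log2 fold change over the root of F, and 95% intervals use the test's degrees of freedom. Ratios of single libraries have exact binomial intervals. For the count of genes at which WT replicate 1 lay outside the other libraries, values under 3 reads were set to the level of 3 reads, and a gene with fewer than 3 reads in WT replicate 1 was not counted as above. The procedure was tested on simulated counts. Alternatives were other normalizations, filters, DESeq2 1.42.0, the replicate number as a block, other sets of libraries and each library left out.

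The receptors, ligands, pathway and marker lists were chosen with earlier results of these data known. Named beside the 10 genes were the pathway genes that passed in either comparison, otherwise the 2 most abundant of each list, and for likeness the 3 closest genes. Further marker genes, SPRY4, DUSP4, ATF3 and EGR1 were named after their values were seen. EPGN, a further ligand, was not analysed here. The result of 1 marker gene is not reported here. Gene positions are from GENCODE release 29 (GRCh38), matched by symbol. Counts of the 2 libraries of a group set the precision, and each amplicon reads 1 gene, so isoforms cannot be told apart.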

Additional observations from a re-analysis of the deposited data

Results flagged for a closer look

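ERBB3 was at 198 RPM and ERBB4 at 61.5 RPM in the library labelled WT replicate 1, which entered neither comparison of MCF10A GIRK1 with its controls. In the other 5 libraries ERBB3 did not pass 8.00 RPM and ERBB4 had 0 reads. Both values lay above every control library that was used, which is why they are listed here. The same library also held the luminal markers named in the report.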

How the results depend on the processing

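AREG kept its direction in all 12 alternatives against eGFP (log2 fold change -2.15 to -1.94, adjusted p from 1.42e-13 to 0.933) and passed in 10, and with WT replicate 2 in all 13 (-2.17 to -1.73, adjusted p from 3.56e-29 to 0.754), passing in 10. EREG was lower throughout (-1.78 to -1.28 and -1.81 to -1.18) and passed in 5 of 12 and 5 of 13. With WT replicate 2 its adjusted p ran from 5.97e-05 to 0.854. The number of genes passing moved most. Against eGFP it was 172 (88 higher, 84 lower), and 881 with no filter (321 higher, 560 lower), 111 with at least 10 reads in every library, 694 with DESeq2 (241 and 453), 0 with all 6 libraries in 3 labelled groups, and 89 to 2933 with 1 library left out. With WT replicate 2 it was 91 higher and 47 lower, and 374 with no filter (182 higher, 192 lower), 806 with DESeq2 (339 and 467), 7 with WT replicate 1 added, and 19 to 984 with 1 library left out. The 2-fold rule gave 1309 genes and 2501 by fold alone, and WT replicate 1 stood outside the others for 3784 genes at 2-fold and 1730 at 4-fold. The cause of these moves was not tested.

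Replicate numbers are shared by the groups without a stated pairing. The replicate differences of eGFP and GIRK1 correlated at 0.196 over 9212 genes, those of eGFP and WT at 0.110 and those of GIRK1 and WT at 0.0269. With the replicate block, 590 genes (217 higher, 373 lower) passed against eGFP, EREG among them (adjusted p 0.0238, edgeR, in a range from 0.00519 to 0.940), and 558 (232 higher, 326 lower) with WT replicate 2, where HBEGF turned to 0.25.

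Signs turned for 3 genes that passed in neither comparison. Against eGFP, leaving out 1 library gave EGFR -0.093 to 0.31, ERBB3 -0.92 to 0.23 and HBEGF -0.70 to 1.49. With WT replicate 2 the same gave EGFR -0.071 to 0.14, ERBB3 -0.41 to 0.41 and HBEGF -0.70 to 0.027. With WT replicate 1 added to the controls, EGFR was 0.45, ERBB3 -3.41 and HBEGF 0.15, where the main fit gave 0.05, -0.12 and -0.27. ERBB3 was 0.090 with eGFP and WT as separate groups. EGF and ERBB4 had too few reads to be tested, ERBB3, BTC and the neuregulins rest on few reads, and 1 read was worth most in the library labelled WT replicate 1.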
